A study of Mus musculus with 23 samples.

Results

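Genes for protein folding and disposal in the endoplasmic reticulum were followed in mouse gastrocnemius muscle, a mostly fast-twitch calf muscle. They are a list of 10 genes of the unfolded protein response, taken from the arrays by matching each probe's RefSeq accession to its symbol. All 10 were measured, by 11 probes, among 21368 genes with a symbol on the array. Male C57BL/6J mice started at 5 months (adult, 6 months at sampling) or 24 months (old, 25 months at sampling) and were assigned to a sedentary control group, high-intensity intermittent training (HIIT) or moderate-intensity continuous training (MICT). Training was daily on a treadmill for 4 weeks, in HIIT as 3 bouts of 2 min at a speed of 27 m/min, separated by 1 min at 5 m/min, and in MICT as 1 bout of 45 min at 13 m/min. Controls were placed on the stopped treadmill, and all muscles were taken after 12 h of rest. The groups were adult control (4 arrays), adult HIIT (4), adult MICT (3), old control (4), old HIIT (4) and old MICT (4). All groups were of this 1 strain with no allele or drug named in the labels, and RNA came from the whole muscle, so that every cell type in it contributes.

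Proteins that are secreted or sit in membranes fold in the endoplasmic reticulum, where chaperones hold them, oxidoreductases form their disulfide bonds, and a disposal system sends those that fail back to the cytosol for degradation. When unfolded proteins accumulate, the sensors IRE1, ATF6 and PERK raise the transcription of these genes, largely through the factors XBP1, ATF6 and ATF4. In muscle the same network serves the sarcoplasmic reticulum and the production of membrane receptors and matrix, and it is known to respond to hard exercise. Plasma cells, which secrete antibody, use it heavily as well.

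The values below are log2 intensities minus the array's 75th percentile, so that 0 stands for that percentile. Differences were tested with limma, which fits a mean for each of the 6 groups over all 23 arrays and pools the spread. A gene was called at an adjusted p (Benjamini-Hochberg over 23708 tested features) under 0.05, each value after ± is a standard error (SE) unless said otherwise, and p-values measure the spread between these arrays. Between 47.2% and 58.9% of gene spots per array were well above background and 0 were saturated. Muscle fibre markers were well above background on every array, 10 of 10. Each slide held arrays of only 2 groups, adult control with adult HIIT (slide 1), adult MICT with old control (slide 2) and old HIIT with old MICT (slide 3). Slide and group therefore cannot be told apart where the compared groups lay on different slides. These comparisons are trained with control old mice, old with adult controls, and adult MICT with either other adult group. The tests of response between ages draw on them. Slide is separated from group only by a model in which slide, age and regimen add up. It takes each training effect as equal at both ages. Its MICT estimate is old MICT minus old HIIT plus adult HIIT minus adult control, so no old control array enters it. Its age estimate is old control minus adult MICT plus that MICT estimate, so arrays of all 6 groups enter it. The model's values are given beside the results.

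Promoter sequence was not itself used to choose the members, and it divided them. They were chosen as genes of the unfolded protein response, so a high share of its motifs among them is no independent result. The endoplasmic reticulum stress element (ERSE), to which ATF6 and XBP1 can bind, was searched on both strands as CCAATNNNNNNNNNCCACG in the 250 bases before each RefSeq gene start (GRCm38.p6), in which all 10 members were found. It stood in 5 of 10 members (Hspa5, Hsp90b1, Creld2, Syvn1 and Derl3), against 0.113% of 32851 promoters. The related ERSE-II, ATTGGNCCACG, stood in 1 of 10, Herpud1, against 0.0304% of promoters. The core of the unfolded protein response element, TGACGTGG, stood in 0 of 10 and in 0.563% of promoters. The matches are shown because members that carry them were called in both directions in old MICT against old control. Herpud1, with the ERSE-II, was called higher, and Creld2 and Derl3, with the ERSE, were called lower. Hspa5, Hsp90b1 and Syvn1 were not called. Each is printed 5′ to 3′ on the gene's strand with the fixed bases of the motif in capitals, and CGTGG followed by ATTGG is the ERSE read on the other strand.
Hspa5, chr2:34772005-34772063 (+ strand): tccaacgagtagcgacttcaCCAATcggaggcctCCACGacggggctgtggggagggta
Hsp90b1, chr10:86705513-86705676 (- strand): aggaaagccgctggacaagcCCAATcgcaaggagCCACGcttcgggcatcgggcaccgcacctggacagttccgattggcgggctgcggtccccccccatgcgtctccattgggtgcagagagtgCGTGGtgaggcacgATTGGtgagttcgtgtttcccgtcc
Creld2, chr15:88819500-88819558 (+ strand): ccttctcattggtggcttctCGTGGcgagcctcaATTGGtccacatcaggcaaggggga
Herpud1, chr8:94386357-94386407 (+ strand): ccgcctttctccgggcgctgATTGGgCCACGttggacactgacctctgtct
Syvn1, chr19:6046512-6046570 (+ strand): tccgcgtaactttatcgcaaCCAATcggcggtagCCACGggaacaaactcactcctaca
Derl3, chr10:75893222-75893280 (+ strand): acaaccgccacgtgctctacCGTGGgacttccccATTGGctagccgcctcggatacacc
Hsp90b1 held the ERSE on both strands. No full match of any of the motifs lay in the windows of Dnajb9, Sdf2l1, Pdia4 or Xbp1, which says only that these letters were not in those 250 bases.

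In old mice after MICT, 6 of 10 members were called against old controls, and they split evenly by direction. Herpud1, Dnajb9 and Xbp1 were higher (1.58-fold to 2.42-fold), and Pdia4, Creld2 and Derl3 were lower. Hspa5, Hsp90b1, Sdf2l1 and Syvn1 did not pass the test. In the same comparison 30.2% of all 23708 features were called, 21.2% higher and 9.03% lower, so much of the transcriptome differed between these arrays. The median difference was 0.10 over the members and 0.19 over all features on the log2 scale.

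**Figure D1:**
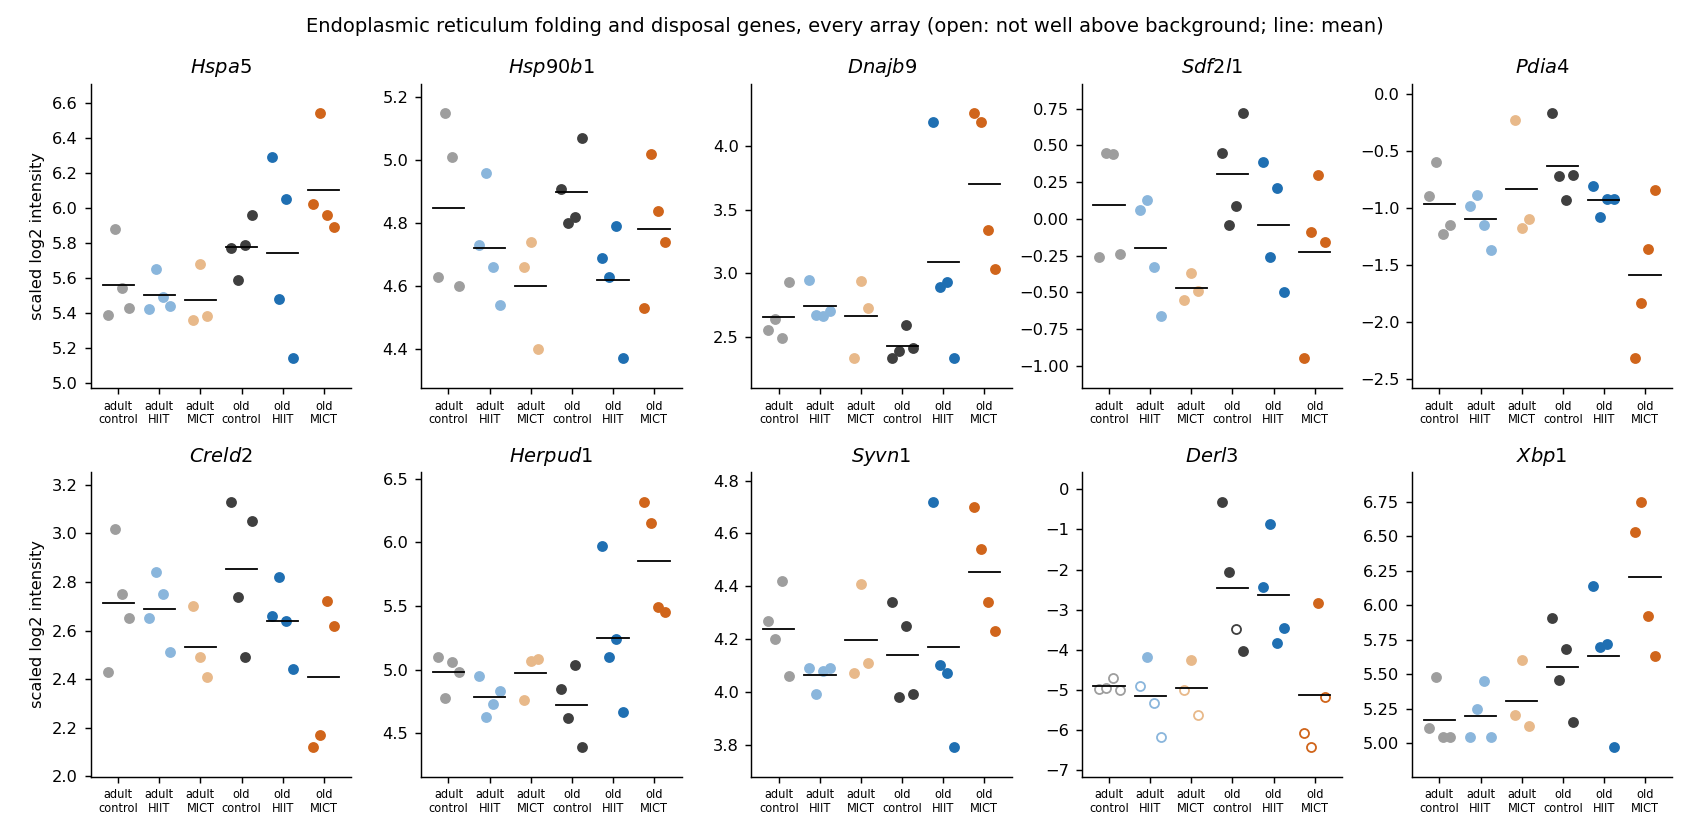
Scaled log2 intensity of the 10 members (vertical axis, one panel a gene) on each of the 23 arrays, by group. Points are arrays in order of replicate number, open points were not well above background, and lines are group means. Herpud1 and Dnajb9 stand highest in old MICT, with means of 5.85 and 3.71, and Derl3 is mostly open outside old controls and old HIIT.

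Among the chaperones, Hspa5, which encodes the main HSP70 of the endoplasmic reticulum (BiP), was at 6.02, 6.54, 5.96 and 5.89 in old MICT. It was at 5.77, 5.59, 5.79 and 5.96 in old controls and at 6.29, 5.48, 6.05 and 5.14 in old HIIT. The groups overlapped, and the old MICT difference of 0.32 ± 0.19 was not called (95% interval -0.08 to 0.72, limma adjusted p = 0.201). The other 11 arrays, all from adult mice, lay between 5.36 and 5.88. Hsp90b1, the HSP90 of the compartment (GRP94), had the narrowest range of the members, from 4.37 to 5.15 over 23 arrays. Its old MICT difference was -0.12 ± 0.14 (interval -0.40 to 0.17, limma adjusted p = 0.518).

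Dnajb9 encodes ERdj4, a J-domain partner of BiP that also restrains IRE1. In old MICT it was at 4.26, 4.19, 3.34 and 3.03, and in old controls at 2.33, 2.39, 2.59 and 2.41. Every old MICT array lay above every old control, and the controls were tightly placed. The difference was 1.27 ± 0.29, or 2.42-fold (limma adjusted p = 0.00647). A second Dnajb9 probe gave 1.42 ± 0.32 (limma adjusted p over all probes = 0.00573) and followed the first with r = 0.96 over 23 arrays. In old HIIT, array 1 stood at 4.19, as high as the upper old MICT arrays, and the others at 2.89, 2.93 and 2.33. Adult controls were at 2.55, 2.64, 2.49 and 2.93, adult HIIT at 2.95, 2.67, 2.66 and 2.70, and adult MICT at 2.33, 2.94 and 2.73. All adult arrays were below all old MICT arrays.

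Sdf2l1 encodes a component of the complex that BiP forms with J-domain proteins. It ranged from -0.95 to 0.30 in old MICT and from -0.04 to 0.72 in old controls, and its difference of -0.53 ± 0.26 did not pass the test (interval -1.07 to 0.02, limma adjusted p = 0.126). Its lowest array of all 23 was old MICT 1, at -0.95.

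Pdia4 and Creld2 were called lower. Pdia4 encodes ERp72, a protein disulfide isomerase. It was at -2.32, -1.83, -1.36 and -0.84 in old MICT and at -0.17, -0.72, -0.93 and -0.71 in old controls. Old MICT 4 fell within the control range and the other old MICT arrays below it. The difference was -0.95 ± 0.26, a 1.94-fold lower mean (limma adjusted p = 0.013). Old HIIT arrays were close together at -0.81, -1.08, -0.92 and -0.92. Adult controls were at -0.90, -0.60, -1.23 and -1.15, adult HIIT at -0.98, -0.89, -1.15 and -1.37, and adult MICT at -0.23, -1.18 and -1.10. Old MICT 1 and 2 were the lowest of the 23.

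Creld2 encodes a small protein of the compartment with EGF-like repeats. It was at 2.12, 2.17, 2.72 and 2.62 in old MICT and at 3.13, 2.74, 2.49 and 3.05 in old controls, and the groups overlapped. The difference was -0.45 ± 0.16, a 1.36-fold lower mean (limma adjusted p = 0.0414). Its probe was spotted 10 times on each array, and the SD between spots of an array was 0.0284 to 0.0914, which is technical spread within an array only. Old HIIT was at 2.66, 2.82, 2.64 and 2.44, adult controls at 2.43, 3.02, 2.75 and 2.65, adult HIIT at 2.65, 2.84, 2.75 and 2.51, and adult MICT at 2.70, 2.49 and 2.41. Only the first 2 old MICT arrays lay below the range of the rest.

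Among the disposal genes, Herpud1 encodes a membrane protein that gathers the ubiquitin ligase complex of the compartment. It was at 6.32, 6.15, 5.49 and 5.45 in old MICT and at 4.85, 4.62, 5.04 and 4.39 in old controls. The groups did not overlap. The difference was 1.13 ± 0.22, or 2.19-fold, and had the smallest adjusted p of the members (limma adjusted p = 0.00369). Groups that do not overlap in the higher direction were found for 16.5% of all features, and for Herpud1 and Dnajb9 among the members. Old HIIT was at 5.97, 5.10, 5.24 and 4.67, with array 1 again next to the upper old MICT arrays. Adult controls were at 5.10, 4.78, 5.06 and 4.98, adult HIIT at 4.95, 4.63, 4.73 and 4.83, and adult MICT at 4.76, 5.07 and 5.08. Every adult array lay below every old MICT array.

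Syvn1 encodes HRD1, the ubiquitin ligase of that complex. It ranged from 4.23 to 4.70 in old MICT and from 3.98 to 4.34 in old controls, and the difference of 0.31 ± 0.15 was not called (interval -0.01 to 0.63, limma adjusted p = 0.125). Its highest array was old HIIT 1, at 4.72.

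Derl3 encodes a derlin, a membrane protein of the disposal channel that is abundant in secretory cells, and it was the only member near background. Its probe was well above background on 10 arrays, 4 of old HIIT, 3 of old control, 1 of old MICT, 1 of adult HIIT, 1 of adult MICT and 0 of adult control. It was at -0.31, -2.05, -3.48 and -4.02 in old controls, at -2.43, -0.86, -3.83 and -3.45 in old HIIT and at -6.06, -6.42, -2.84 and -5.16 in old MICT. Old MICT and old control overlapped through old MICT 3, the array of its group that measured the gene. The difference of -2.65 ± 0.79 was called (limma adjusted p = 0.0187), but 3 of 4 old MICT values were not above background, so its size depends on how background is treated. With normexp background it was -0.63 ± 0.32 and not called (limma adjusted p = 0.165). Adult controls were at -4.98, -4.94, -4.70 and -5.00, adult HIIT at -4.90, -4.17, -5.33 and -6.16, and adult MICT at -5.00, -4.25 and -5.62.

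The highest levels of Derl3 lay on the arrays with the highest B cell marker scores. The B cell marker score, the median over 7 tested markers of the log2 deviation from the adult control mean, was 6.03, 4.74, 2.34 and 1.92 in the sedentary old group. It was 0.98, 4.26, 0.73 and 1.25 after HIIT and lay from -0.05 to 0.26 after MICT. Derl3 was highest on old control 1, old HIIT 2 and old control 2, the arrays with the highest B cell scores. Below them the orders differed. Old HIIT 1, at -2.43, had a B cell score of 0.98, and old MICT 3, at -2.84, had 0.26. Both lay above old controls 3 and 4, at -3.48 and -4.02, which had scores of 2.34 and 1.92. The plasma cell score over 9 markers was 0.45 to 1.88 in old controls, -0.23 to 0.96 in old HIIT and 0.05 to 0.23 in old MICT. Summed over the list, B cell markers were at 2.28 to 32.8 times the array's 75th percentile in old controls, 1.77 to 9.25 in old HIIT, 1.20 to 1.51 in old MICT and 0.984 to 1.41 in the adult groups. Plasma cell markers summed to 13.3 to 41.8 in old controls, 13.2 to 24.4 in old HIIT, 13.6 to 18.3 in old MICT and 12.2 to 19.7 in adults. In old MICT against old control, 5 of 7 B cell, 5 of 9 plasma cell and 6 of 9 T and NK cell markers were called lower. Over all features 21.2% were called higher and 9.03% lower there. Of the other marker lists in that comparison, dividing cell markers were lower for 6 of 6 (median -3.35), macrophage markers lower for 4 of 7 (median -0.73) and muscle fibre markers higher for 3 of 10 (median 0.38). Neutrophil and mast cell markers were lower for 3 of 7 (median -0.81). Keratinocyte markers had a median of -3.37, with 0 of 6 called. The part of these cell types in the changes of any member was not tested. The B cell marker Ms4a1 was not well above background on old MICT 1, 2 and 4, and the plasma cell marker Jchain was well above background on all old arrays, at -1.30 to 0.27 in old MICT and -0.36 to 4.45 in old controls. The part of these cells in the Derl3 difference was not tested, and in whole muscle fewer cells of a type and less RNA per cell cannot be told apart. Without old controls 1 and 2 the Derl3 difference was -1.37 ± 0.84 (limma adjusted p = 0.313).

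**Figure D2:**
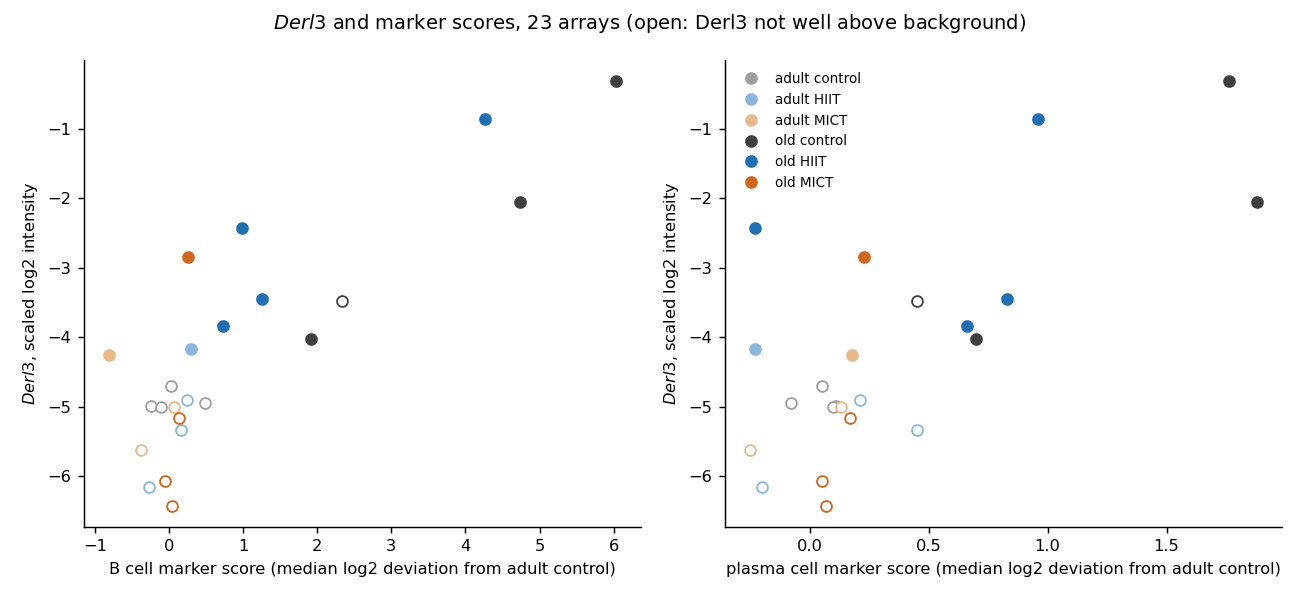
Derl3, scaled log2 intensity, against the B cell (left) and plasma cell (right) marker score on 23 arrays, coloured by group. Open points mark arrays on which Derl3 was not well above background, and the old control and old HIIT arrays with B cell scores over 4 carry the highest Derl3 levels.

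Xbp1 encodes the transcription factor that IRE1 activates by splicing its RNA, and its single probe does not tell the spliced from the unspliced form. It was at 6.53, 6.75, 5.92 and 5.63 in old MICT and at 5.91, 5.46, 5.68 and 5.15 in old controls. The groups overlapped, old MICT 1 and 2 being above all other arrays. The difference was 0.66 ± 0.24, or 1.58-fold (limma adjusted p = 0.0422). Old HIIT was at 6.14, 5.70, 5.72 and 4.97, adult controls at 5.11, 5.48, 5.04 and 5.04, adult HIIT at 5.04, 5.25, 5.45 and 5.04, and adult MICT at 5.20, 5.60 and 5.12.

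The calls changed with the arrays and the model used. How many of all features were called in the fits that leave out arrays is not given here. The losses in those fits are therefore not shown to be particular to the members. Without old MICT 1 and 2, 0 members were called, Herpud1 at 0.75 ± 0.24 (limma adjusted p = 0.0915), Dnajb9 at 0.75 ± 0.31 (0.147), Pdia4 at -0.47, Creld2 at -0.18, Xbp1 at 0.23 and Derl3 at -1.53. Without old controls 1 and 2, which had the highest B cell scores of the 23, Herpud1 was the only member called, at 1.14 ± 0.28 (limma adjusted p = 0.0474), and Dnajb9 was at 1.21 ± 0.38 (0.0786). With single arrays left out, the count was 2 without old MICT 1, 3 without old MICT 2 and 3 without old control 2. Pdia4 was lost without old MICT 1 (-0.71, limma adjusted p = 0.0529), and Derl3 without old MICT 1 (-2.34), old MICT 2 (-2.22), old control 1 (-1.93) or old control 2 (-2.51). Xbp1 was lost without old MICT 1 (0.55), old MICT 2 (0.48), old control 2 (0.63) or old control 4 (0.53), and Creld2 without any of these 4 or without old control 1 (-0.48 to -0.35). Herpud1 and Dnajb9 were called with any 1 of the 23 arrays left out. In a limma fit of old MICT and old control alone, 0 members and 0 features were called, with adjusted p = 0.052 for Herpud1 and Dnajb9. The additive model with slide, whose MICT estimate leaves out the old controls, called 0 features. It put Herpud1 at 0.42 ± 0.31, Dnajb9 at 0.71 ± 0.41, Xbp1 at 0.61 ± 0.34, Pdia4 at -0.78 ± 0.37, Creld2 at -0.26 ± 0.23 and Derl3 at -2.71 ± 1.11 (limma adjusted p from 0.729 to 0.790). Quantile scaling moved the median of all features from 0.19 to 0.07 and the share of calls that were higher from 70.1% to 57.8%. Under it 2 members were called higher and 4 lower, with Xbp1 (0.38) no longer called and Hsp90b1 (-0.43) called.

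**Figure D3:**
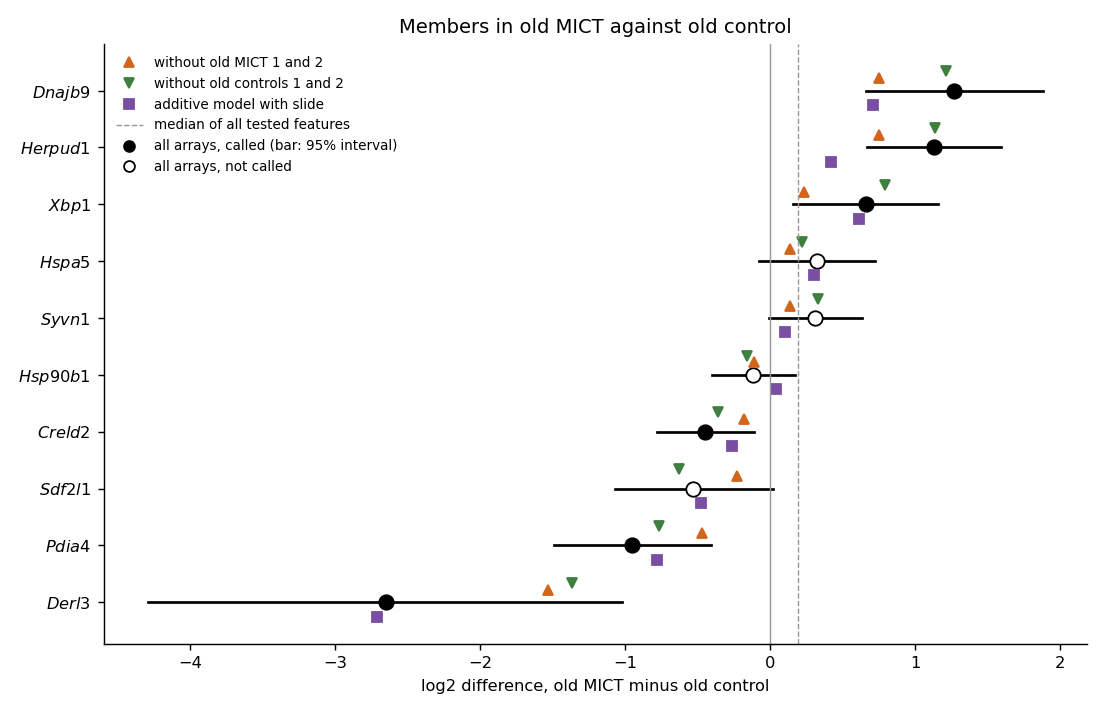
Log2 difference between old MICT and old control (horizontal axis) for each member, with its 95% interval. Filled circles were called and open circles were not, the dashed line is the median of all tested features at 0.19, and the other symbols are the estimates without old MICT 1 and 2, without old controls 1 and 2 and in the additive model with slide. No old control array enters the additive estimate. Members lie on both sides of 0, and leaving out old MICT 1 and 2 brings the 6 called members closer to it.

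After HIIT in old mice limma called 0 members, where 0.434% of all features were called. Under an unadjusted p of 0.05 were 2 of 10 members and 3685 of 23708 features. Herpud1 was higher by 0.52 ± 0.22 (limma adjusted p = 0.273) and Dnajb9 by 0.65 ± 0.29 (0.290), in each case led by old HIIT 1. Hsp90b1, at 4.69, 4.63, 4.79 and 4.37, lay below all 4 old controls, at 4.91, 4.80, 4.82 and 5.07, with a difference of -0.28 ± 0.14 (limma adjusted p = 0.332), where 1.63% of features had old HIIT arrays all below the controls. Old HIIT and old MICT shared a slide, and between them 0 members and 0% of features were called by limma, with 5 members and 4045 features under an unadjusted p of 0.05. On that slide Herpud1 differed by -0.61 ± 0.22 (HIIT minus MICT, limma adjusted p = 0.211), Dnajb9 by -0.62 ± 0.29 (0.286), Pdia4 by 0.66 ± 0.26 (0.227) and Derl3 by 2.48 ± 0.79 (0.209), the last with 1 of 4 old MICT arrays above background. These signs set old HIIT between old control and old MICT for Herpud1, Dnajb9 and Pdia4, by their means alone.

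In adult mice 0 members and 0% of features were called by limma in either training comparison, with 1215 features and 0 members for HIIT and 500 features and 0 members for MICT under an unadjusted p of 0.05. Over the 10 members the differences ran from -0.30 (Sdf2l1) to 0.09 (Dnajb9) for HIIT, a comparison within 1 slide. They ran from -0.57 (Sdf2l1) to 0.14 (Xbp1) for MICT, a comparison between slides. Herpud1 differed by -0.19 ± 0.22 after HIIT (interval -0.66 to 0.27) and by -0.01 ± 0.24 after MICT (-0.51 to 0.49), and Dnajb9 by 0.09 ± 0.29 (-0.52 to 0.70) and 0.01 ± 0.32 (-0.65 to 0.67). Sdf2l1 was at -0.55, -0.37 and -0.49 in adult MICT, below all adult controls, at -0.26, 0.45, 0.44 and -0.24, with a difference of -0.57 ± 0.28 (limma adjusted p = 1). Such a gap in the lower direction occurred for 2.32% of features there. Between adult HIIT and adult MICT limma called 0 members and 0% of features, with 0 members and 1821 features under an unadjusted p of 0.05.

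The difference in MICT response between old and adult mice was itself tested, and limma called 0 members, where 0.666% of features were called. Under an unadjusted p of 0.05 were 4 of 10 members and 6110 of 23708 features. Herpud1 came nearest, at 1.14 ± 0.33 (limma adjusted p = 0.0858), followed by Dnajb9 at 1.26 ± 0.43 (0.110) and Pdia4 at -1.09 ± 0.38 (0.115). Without old control 3 Herpud1 passed, at 1.25 (limma adjusted p = 0.0345). For the HIIT response limma called 0 members and 0% of features, with 1 member, Herpud1 (0.72 ± 0.31), and 2698 features under an unadjusted p of 0.05.

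Between old and adult controls, which lay on different slides, Derl3 was the only member called. There 13.6% of all features were called, and 4.58% of all features were called higher. The old control arrays of Derl3 all lay above its adult control arrays, as for 4.29% of features. It was well above background on 3 of 4 old control arrays and on 0 of 4 adult control arrays. With a floor for adult controls, described below, the mean of the 4 old controls was 4.15-fold higher. In that mean old control 3, itself not above background, stands at its measured value. The limma difference was 2.44 ± 0.79 (adjusted p = 0.0449). With normexp background the difference was 0.96 and not called (limma adjusted p = 0.0642). It was called in 14 of 23 fits that each left out 1 array. The call was lost without old control 1 or 2, each adult control, adult HIIT 2, adult MICT 3 or old MICT 4. The 4.15-fold value puts every adult control array no lower than the faintest signal that passed background on it. Derl3 itself did not pass at -3.48 on old control 3, so this value is not a strict lower bound. B cell markers were called higher in the same comparison for 5 of 7, plasma cell markers for 2 of 9 and T and NK cell markers for 6 of 9. So were dividing cell markers for 4 of 6, adipocyte markers for 3 of 8 and keratinocyte markers for 1 of 6. Muscle fibre markers were called lower for 3 of 10 and endothelium markers for 1 of 7. The part of any of these cell types in the Derl3 difference was not tested. Without old control 1 Derl3 was at 1.72 (limma adjusted p = 0.161), without old controls 1 and 2 at 1.15 (0.550), and in the additive model with slide its sign turned, at -0.22 ± 1.40 (0.969). Against adult MICT, on their shared slide, old controls had Derl3 higher by 2.49 ± 0.85 (limma adjusted p = 0.076), with age and regimen both differing. The additive model's age estimate is this difference plus its MICT estimate of -2.71. The MICT estimate draws on old MICT, in which Derl3 was well above background on 1 of 4 arrays. The other 9 members differed by -0.26 (Herpud1) to 0.38 (Xbp1) between old and adult controls and were not called.

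Over all 6 groups limma's F test called 4 of 10 members, Herpud1 (adjusted p = 0.0224), Xbp1 (0.0377), Derl3 (0.0384) and Dnajb9 (0.0452), against 12.1% of features. Without old MICT 1 and 2, and without old controls 1 and 2, it called 0. With single arrays left out it called 0 without old control 2, old MICT 1 or old MICT 2, and 1 without old control 1, adult control 1, 3 or 4, adult HIIT 1, 2 or 4, or adult MICT 4. It called 2 without old HIIT 2 or 3. By group mean, old MICT stood highest for Hspa5, Dnajb9, Herpud1, Syvn1 and Xbp1 and lowest for Pdia4 and Creld2. Old control stood highest for Hsp90b1, Sdf2l1, Pdia4, Creld2 and Derl3 and lowest for Dnajb9 and Herpud1. Neighbouring groups in these orders overlapped in their arrays in every case except the step from old HIIT to adult control for Derl3, from -2.64 to -4.91.

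Across arrays the members formed no single block. Herpud1 and Dnajb9 rose and fell together (r = 0.93, rho = 0.78 over 23 arrays), also around their group means (r = 0.89) and without old MICT 1 and 2 (0.86). Herpud1 with Syvn1 gave r = 0.83, and Hspa5 with Xbp1 0.83. Hsp90b1 with Sdf2l1 gave 0.79 and Pdia4 with Creld2 0.73. Herpud1 and Dnajb9 also followed Xbp1 (0.81 and 0.79), and Sdf2l1 followed Creld2 (0.70). Pdia4 and Creld2 ran against Herpud1 (-0.66 and -0.63) and Dnajb9 (-0.68 and -0.55). The value for Dnajb9 with Pdia4 was -0.47 around group means and -0.32 without old MICT 1 and 2. The arrays share groups, slides and a scaling factor, so these values describe the set of arrays and carry no test.

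**Figure D4:**
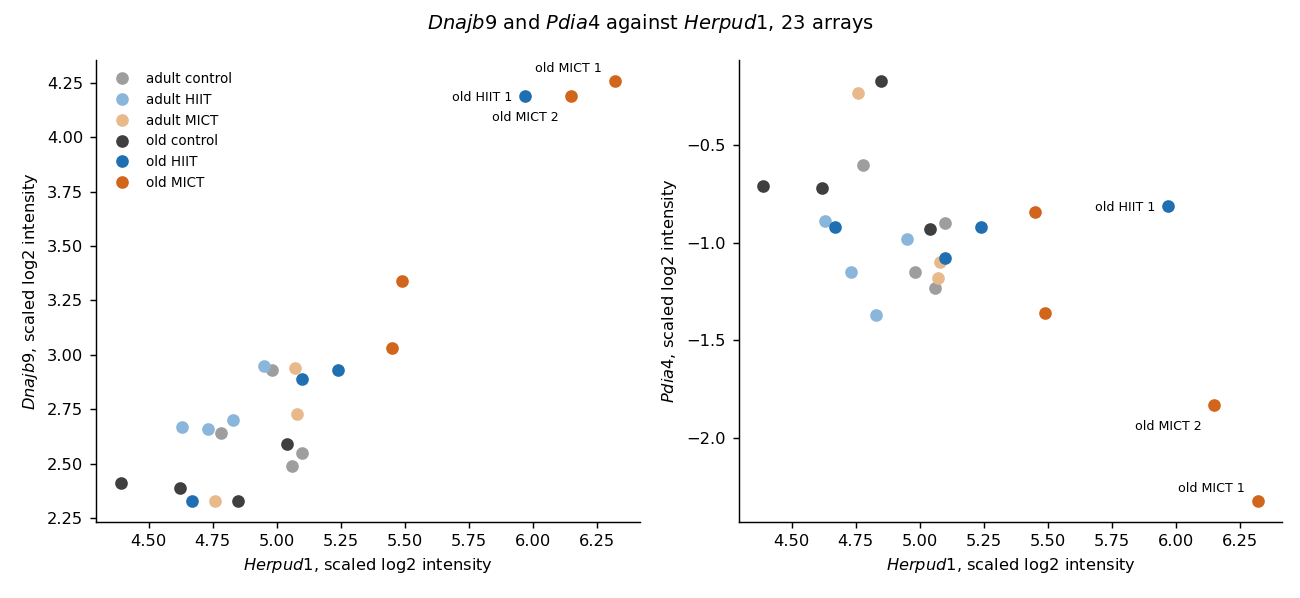
Dnajb9 (left) and Pdia4 (right) against Herpud1 on the 23 arrays, all in scaled log2 intensity and coloured by group. Old MICT 1, old MICT 2 and old HIIT 1 are high in Herpud1 and Dnajb9, and of these only the MICT arrays are low in Pdia4.

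The rest of the pathway was read from lists that leave out the members. In old MICT against old control, disposal genes were called higher for 10 of 27 and lower for 0 of 27, with a median of 0.25. Over all features 21.2% were called higher and 9.03% lower, with a median of 0.19, and every list count here is to be read beside these. Vcp, the ATPase that extracts proteins from the membrane, was at 7.40, 7.53, 6.89 and 7.18 in old MICT, against 6.51, 6.38, 6.64 and 6.51 in old controls, without overlap, a difference of 0.74 ± 0.15 (limma adjusted p = 0.00378). Its cofactor Nploc4 differed by 0.95, the Herpud1 relative Herpud2 by 0.80, and the ubiquitin-conjugating enzymes Ube2g2 and Ube2j2 by 0.96 and 0.47. Genes of disulfide formation had 0 of 15 higher and 5 of 15 lower, with a median of -0.21. These were Pdia5 (-0.94), Ero1b (-0.71), Prdx4 (-0.65), Txndc5 (-0.55) and Erp29 (-0.31). Pdia5 and Txndc5 are protein disulfide isomerases, as Pdia4 is, and Ero1b is an oxidase that supplies them.

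Of the PERK and ATF4 arm, which slows translation and induces amino acid and redox genes, 8 of 14 were called higher and 0 lower, with a median of 0.63. Chac1, a glutathione-degrading enzyme induced by ATF4, was at 7.82, 7.74, 6.04 and 4.73 in old MICT, against 4.10, 2.46, 4.24 and 3.17 in old controls, a difference of 3.09 ± 0.71 (limma adjusted p = 0.00647). Old MICT 1 and 2 were again the highest. Atf4 itself differed by 1.07, Cebpb by 1.65 and Ppp1r15a, the phosphatase subunit that restores translation, by 1.58. The other 6 genes of the arm were not called and went both ways. They were Atf5 (0.42), Trib3 (0.35), Atf3 (0.28), Sesn2 (0.02), Ddit3 (-0.57) and Nupr1 (-0.75). The sensors and proteases that start the response were split, 3 of 11 higher (Mbtps2 0.90, Atf6 0.55, Rtcb 0.29) and 3 of 11 lower. Among the lower was Eif2ak3, which encodes PERK (-0.59), beside Creb3l1 (-0.78) and Creb3l3 (-1.98, well above background on 4 arrays).

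Other chaperones were called higher for 3 of 19 (Creld1 0.67, Cdnf 0.46 and Dnajc3 0.36) and lower for 2 of 19 (Ppib -0.57 and Fkbp2 -0.38). Translocon and signal peptidase genes were called higher for 8 of 27, led by the signal recognition particle gene Srp68 (0.69), and lower for 2 of 27. Vesicle export genes were called higher for 5 of 22, among them Sec24a (1.18), and lower for 2 of 22, among them the retrieval receptor Kdelr3 (-1.46). Collagen folding enzymes had 0 of 13 higher and 2 of 13 lower. One of these, the collagen chaperone Serpinh1, was at 1.72, 1.29, 2.30 and 2.48 in old MICT, against 2.98, 2.62, 2.84 and 4.01 in old controls (-1.16 ± 0.36, limma adjusted p = 0.0217). Fibroblast markers were called lower for 6 of 8 and higher for 1 of 8 between the same groups. Their scores were -2.19 to -0.68 in old MICT and -0.25 to 0.88 in old controls, their summed levels were 425 to 489 and 410 to 669, and their part in the lower folding genes was not tested.

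**Figure D5:**
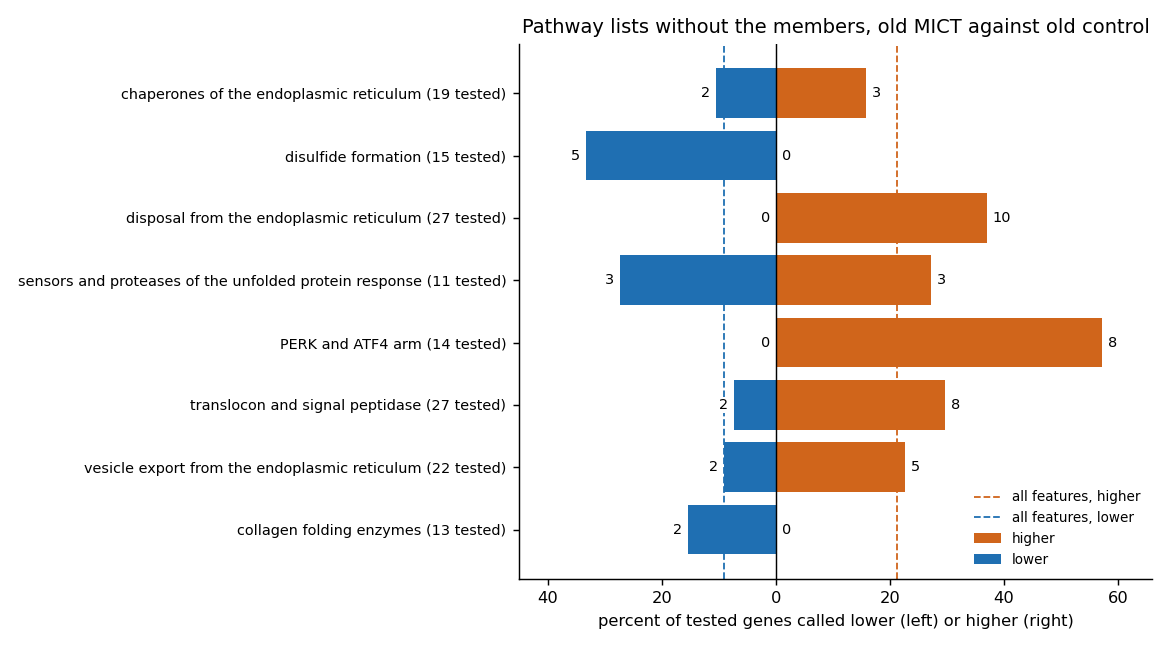
Percent of the tested genes of each pathway list called higher (right) or lower (left) in old MICT against old control, with the number called at the end of each bar. Dashed lines are the percent of all features called, 21.2 higher and 9.03 lower. Disposal and the PERK and ATF4 arm have calls on the higher side only, and disulfide formation and collagen folding on the lower side only.

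The list counts changed with the same arrays. Disposal genes called higher numbered 6 without old control 2 and 5 without old MICT 2, and those of the PERK and ATF4 arm 5 without any 1 of old controls 1, 2 and 4 and old MICT 1 and 2. Lower calls in disulfide formation numbered 2 without old control 1 or old MICT 1 and 3 without old control 4 or old MICT 2. Translocon genes called higher numbered 3 without old control 1, 2 or 4 and 4 without old MICT 1 or 2. Without old MICT 1 and 2, 0 genes of these lists were called in either direction, and without old controls 1 and 2 the count was 1, a vesicle export gene called lower. In the fit of the compared groups alone and in the additive model with slide it was 0. Under quantile scaling disposal had 5 called higher and 2 lower, translocon 3 and 4, other chaperones 1 and 3, and the PERK and ATF4 arm 7 and 1. In old HIIT against old control, and in the test of the MICT response between ages, 0 genes of any of these lists were called.

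Genes other than the members whose levels over the 23 arrays were most like the mean of the members were Bhlha15 (r = 0.86), a transcription factor of secretory cells, Klra4 (0.80), Mcemp1 (0.79), Fam169b (0.78), Ccl12 (0.77) and B430306N03Rik (0.76). Bhlha15 was well above background on 7 arrays, Klra4 and Fam169b on 4. That mean followed Derl3 most (r = 0.73), whose levels spanned 6.11 log2 units, mostly near background, and followed Herpud1 (0.35), Dnajb9 (0.35) and Pdia4 (0.20) little. Taken singly, Herpud1 was most like Tfdp2 (r = 0.96), Sik3 (0.95) and Pde7a (0.95), Pdia4 was most like Ttyh3 (0.84), Hyls1 (0.83) and Rab29 (0.83), and Derl3 was most like the lymphocyte genes Cd2 (0.89), Ltb (0.88) and Klra4 (0.87). The nearest genes of Herpud1, Pdia4 and Derl3 had no name in common.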

How the data were processed

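RNA of mouse gastrocnemius was measured on 23 1-colour Agilent arrays, 4 per group and 3 for adult MICT. Per the file headers, Feature Extraction made the deposited processed intensity, background subtracted and detrended within each array and not scaled between arrays. The deposited series table holds a score per spot, whose making is not given in the sources used here and which followed log10 intensity with r of at least 0.99954. It served as an alternative.

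Gene spots (59305 of 62976) were averaged per probe, and log2 of the deposited intensity was reduced by each array's 75th percentile. Probes well above background on at least 3 arrays, with none flagged as outlier on an array, were kept (31942), and the brightest per symbol gave 23708 features. Symbols came from RefSeq GRCm38.p6 by accession (28331 of 29786 matched), and the array's own build is mm9. limma 3.58.1 in R 4.3.3 fitted 6 group means with an intensity trend, 2-sided. The fit was tested on simulated data.

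The members and lists were chosen with earlier results of these data known. All members are named. The called genes named from a list are among its 6 of smallest p at most, and not every one of those is named. Uncalled list genes are named only for the PERK and ATF4 arm. The 3 nearest genes of single members, the fit without old MICT 1 and 2, and the comparison of old control with adult MICT were added after seeing the data. The number of arrays limits the precision. Alternatives were normexp background correction (offset 50), quantile scaling, other filters, array weights, a replicate block, a slide term, the deposited score, separate fits of each pair of groups, and leaving out single arrays.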

Additional observations from a re-analysis of the deposited data

Results flagged for a closer look

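Dnajb9 on adult HIIT 1 stood apart from its group, at 2.95 against 2.66 to 2.70 on the other 3 arrays. It was the only one of 50 member and group combinations of 4 arrays in which the highest or lowest array was so far from the rest, and chance alone flags about 1 in 20.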

How the results depend on the processing

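Counts of members called were recomputed under each alternative. Calls over all features changed as well. In old MICT against old control the main fit called 5025 of them higher and 2140 lower, and normexp background 2869 and 1235. In old MICT against old control, 6 members were called, and the count was 3 with normexp background, 0 with the compared groups alone, 0 in the additive model with slide, 1 without old controls 1 and 2, 0 without old MICT 1 and 2, and 2 to 6 with each array left out. With no filter on dim probes Creld2 and Xbp1 were lost (limma adjusted p = 0.0582 and 0.0608), as with array weights (0.101 and 0.145). The deposited value table lost Xbp1 (0.215), and quantile scaling lost Xbp1 (0.195) and gained Hsp90b1 (0.0365). In old against adult controls the count was 1, and 0 with normexp background, quantile scaling, no filter on dim probes, only probes above background on all arrays, the compared groups alone, the additive model with slide, the deposited value table and without old controls 1 and 2, and 0 to 1 with each array left out. The test of any difference called 4, and 1 with normexp background, no filter or the deposited value table, 0 without old controls 1 and 2 or without old MICT 1 and 2, and 0 to 5 with each array left out. The difference in MICT response called 0, and 1 with array weights, and 0 to 1 with each array left out. The strict filter removed Derl3, and fits of fewer arrays have fewer degrees of freedom, and for the others the cause was not tested.

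Of single values called, Derl3 turned sign with age (-0.22) in the additive model with slide, as did these list genes in old MICT against old control: Tram1 (0.01), Ssr1 (0.01), Srp54a (-0.02), Sec24d (0.04), Mbtps2 (-0.04), Ppib (0.05) and Fkbp2 (0.08). Over the members' single values in all comparisons and alternatives, 2852 kept direction and side, 62 fell below the threshold, 3 passed it, 143 values called in neither fit changed sign, and 1 called value changed sign. Most values that kept direction and side were called in neither fit. Of the comparisons between groups, only old MICT against old control and old against adult controls had members called in the main fit. The 62 losses fell on those calls. The 6 calls of old MICT kept their direction with each of the 23 arrays left out.

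Replicate numbers are slide positions and did not pair samples: over 55 same-numbered pairs r of their deviations ran from -0.44 to 0.40 (median 0.04, other pairs -0.03), and 7 of 23 arrays correlated best with their own number. With the replicate block 5 members were called in old MICT against old control, Creld2 being lost (limma adjusted p = 0.0552), and the block changed the count to 3 in the test of any difference and no other count.

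Signal over background limits Derl3, which 13 of 23 arrays did not measure.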
